A study of Danio rerio with 4 samples.

Results

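The *atf4* arm of the integrated stress response was followed in *grwd1* crispant and wt zebrafish larvae. Its members were the genes with the symbols *atf4a*, *atf4b*, *atf3*, *ddit3*, *chac1*, *asns*, *trib3*, *sesn2*, *psat1* and *phgdh*, read without regard to case. Each symbol was found at 1 gene ID, which gave 10 of the 32520 genes in the count table. Whole larvae of 2 groups were compared at 8 days post fertilisation (dpf), with 2 libraries each. The *grwd1* crispants were first-generation (F0) larvae injected at the one-cell stage with Cas9 mRNA and a pair of guide RNAs against *grwd1*, so each larva is a mosaic of edited and unedited cells, and the time point falls in the window in which such larvae died. The wt larvae carried the genotype label wildtype, with no strain and no mock injection named. For each group 15 larvae were pooled. No source used here states whether the duplicate libraries came from separate pools. The p-values therefore reflect only how far duplicate libraries differed, which can be a technical spread. The test shares this spread across genes, so no gene's p-value rests on its own duplicates alone. The guides are shown because they alone define the crispant group. They are written 5′ to 3′ without the PAM, and the supplement of the study places gRNA1 in the first exon and gRNA2 in the last exon of *grwd1*, which was not checked against a genome here.
grwd1 gRNA1: gatacatgcggtaagcggag
grwd1 gRNA2: actccaccgacagatcccat

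In the integrated stress response, kinases that sense amino acid shortage, unfolded protein in the endoplasmic reticulum, double-stranded RNA or haem shortage phosphorylate the α subunit of the initiation factor eIF2. Most translation then slows, while the mRNA of ATF4, a bZIP transcription factor, is translated more through its upstream open reading frames. ATF4 is therefore set largely at the level of protein, and its activity is commonly read from the mRNAs of its targets. In mammals these include the transcription factors ATF3 and DDIT3 (CHOP), the pseudokinase TRIB3, the glutathione-degrading enzyme CHAC1, SESN2, which restrains mTORC1, and enzymes that make asparagine and serine.

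Total counts ran from 15916216 to 18510962 in the crispant libraries and from 16086482 to 18619802 in the wt libraries. *grwd1* itself had 6.40 and 6.34 CPM (counts scaled to the TMM-adjusted library size) in the crispants, against 24.98 and 24.1 CPM in wt, or 26.0% of the wt level (log2 fold change -1.94, SE 0.18, adjusted p = 3.25e-14). Log2 fold changes compare crispants with wt (positive where crispants are higher) in edgeR's quasi-likelihood test, with Benjamini-Hochberg adjustment over the 20479 genes that passed the low-count filter, and a gene is said to rise or fall where its adjusted p was 0.05 or less. By this rule 16.4% of all genes tested changed, 8.98% higher and 7.44% lower in crispants. When library totals alone set the scale, 2355 genes were higher and 1000 lower, against 1839 and 1524 with TMM, and the median of all genes stood at 0.08 in place of 0.0046. In 54.6% of all genes tested the libraries of the 2 groups did not overlap, so separation of 2 against 2 libraries is common here and sets no gene apart.

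Of the 10 genes, 9 had enough counts to be tested. *atf3* and *ddit3* rose, *phgdh* fell, and 6 did not pass, so that 33.3% of the tested members changed beside 16.4% of all genes tested. The members and the lists below were chosen with earlier results of these data known. Their shares called are therefore descriptions and not an independent comparison with all genes. The libraries of the groups did not overlap in 6 of the 9 tested members, beside 54.6% of all genes tested. The median log2 fold change of the 9 was 0.03, and that of all genes tested was 0.0046. The changes thus went in both directions, and both *atf4* mRNAs stood close to their wt level. Since whole larvae were sequenced, fewer cells of a type and less RNA per cell cannot be told apart.

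*atf4a* (ENSDARG00000111939) and *atf4b* (ENSDARG00000038141) are the zebrafish copies of *ATF4*. *atf4a* had 172 and 208 CPM in crispants, against 193 and 179 CPM in wt. The crispant libraries lay on either side of both wt libraries. Its log2 fold change was 0.03 (SE 0.08, 95% interval -0.12 to 0.18, adjusted p = 0.860), a level between 91.8% and 113.3% of wt. Without crispant replicate 2 the value was -0.12 (adjusted p = 0.411) and without crispant replicate 1 it was 0.16 (adjusted p = 0.211). *atf4b* had 187 and 203 CPM in crispants, against 192 and 189 CPM in wt, again with overlap. Its log2 fold change was 0.04 (SE 0.07, 95% interval -0.11 to 0.18, adjusted p = 0.810). Both mRNAs were deeply counted, with 2992 to 3593 reads per library, and the interval of *atf4b* ran from 92.7% to 113.3% of wt. The copies were also counted in nearly the same proportion in each library. *atf4a* made up 47.9% (95% exact binomial interval 46.7% to 49.1%) and 50.6% (49.3% to 51.8%) of the reads of the pair in crispants, against 50.1% (48.9% to 51.4%) and 48.7% (47.5% to 49.9%) in wt. The intervals cover counting error only, and the libraries of a group differed as much as the groups. These values are mRNA levels and say nothing of how much Atf4 protein was made.

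*atf3* and *ddit3* encode stress-induced transcription factors of the bZIP class that act downstream of ATF4, and both rose. *atf3* (ENSDARG00000007823) had 34.8 and 34.4 CPM in crispants, against 24.1 and 20.2 CPM in wt. Both crispant libraries lay above both wt libraries, by more than the libraries of either group differed from each other. The mean was 34.6 ± 0.320 CPM in crispants and 22.2 ± 2.79 CPM in wt (SD, n = 2 each). The log2 fold change was 0.64 (SE 0.13, adjusted p = 0.000108), or 156.3% of the wt level with a 95% interval of 130.7% to 186.9%. This call held with DESeq2, with limma-voom, under every other scaling and filter tried and without any single library, with adjusted p-values from 2.16e-05 to 0.0157.

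*ddit3* (ENSDARG00000059836), which encodes the factor known as CHOP, had 106 and 102 CPM in crispants, against 84.3 and 89.1 CPM in wt. The groups did not overlap, but the step was small. The means were 104 ± 2.64 CPM in crispants and 86.7 ± 3.44 CPM in wt (SD, n = 2 each), a log2 fold change of 0.26 (SE 0.08, adjusted p = 0.0186) or 120.0% of the wt level. The call was lost with DESeq2 (log2 fold change 0.25, adjusted p = 0.0588), at an adjusted p of 0.01, and in edgeR without crispant replicate 1 (0.24, adjusted p = 0.103), wt replicate 1 (0.22, adjusted p = 0.217) or wt replicate 2 (0.30, adjusted p = 0.0584). Its direction was kept in all of these.

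*trib3* (ENSDARG00000016200) encodes a pseudokinase that in mammals is induced by ATF4 and DDIT3 and feeds back on ATF4. It had 109 and 106 CPM in crispants, against 104 and 106 CPM in wt. The values of the groups overlapped. With a log2 fold change of 0.03 (SE 0.08, 95% interval -0.13 to 0.19, adjusted p = 0.873), its level lay between 91.2% and 114.0% of wt.

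*sesn2* (ENSDARG00000070012) encodes sestrin 2, a leucine-binding protein that restrains mTORC1 and in mammals is also a p53 target. It was counted thinly, with 69 and 58 reads in crispants and 93 and 101 reads in wt. This gave 3.59 and 3.60 CPM in crispants, against 5.96 and 5.54 CPM in wt. Both crispant libraries were lower than both wt libraries, with a log2 fold change of -0.67 that was the lowest estimate among the 9 members. At this depth the standard error was 0.31 and the adjusted p was 0.129, so the difference did not pass, although its 95% interval of -1.29 to -0.06, which is not adjusted for the number of genes, lay below 0. The related *sesn1* (ENSDARG00000020693) and *sesn3* (ENSDARG00000015822) had log2 fold changes of 0.06 and 0.19 (adjusted p = 0.655 and 0.451).

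*chac1* (ENSDARG00000070426), the target that breaks down glutathione, had 0 reads in each of the 4 libraries. A count of 0 allows a level of up to 0.156 and 0.186 CPM in the crispant libraries and up to 0.192 and 0.165 CPM in the wt libraries (3 reads per library, counting error only). These limits hold only if reads of the gene could be counted under the annotation used, which was not tested, and no difference could be measured. Its relative *chac2* (ENSDARG00000055078) was counted at 5.57 and 4.97 CPM in crispants, against 5.00 and 5.82 CPM in wt, and did not pass (log2 fold change -0.04, adjusted p = 0.957).

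**Figure D1:**
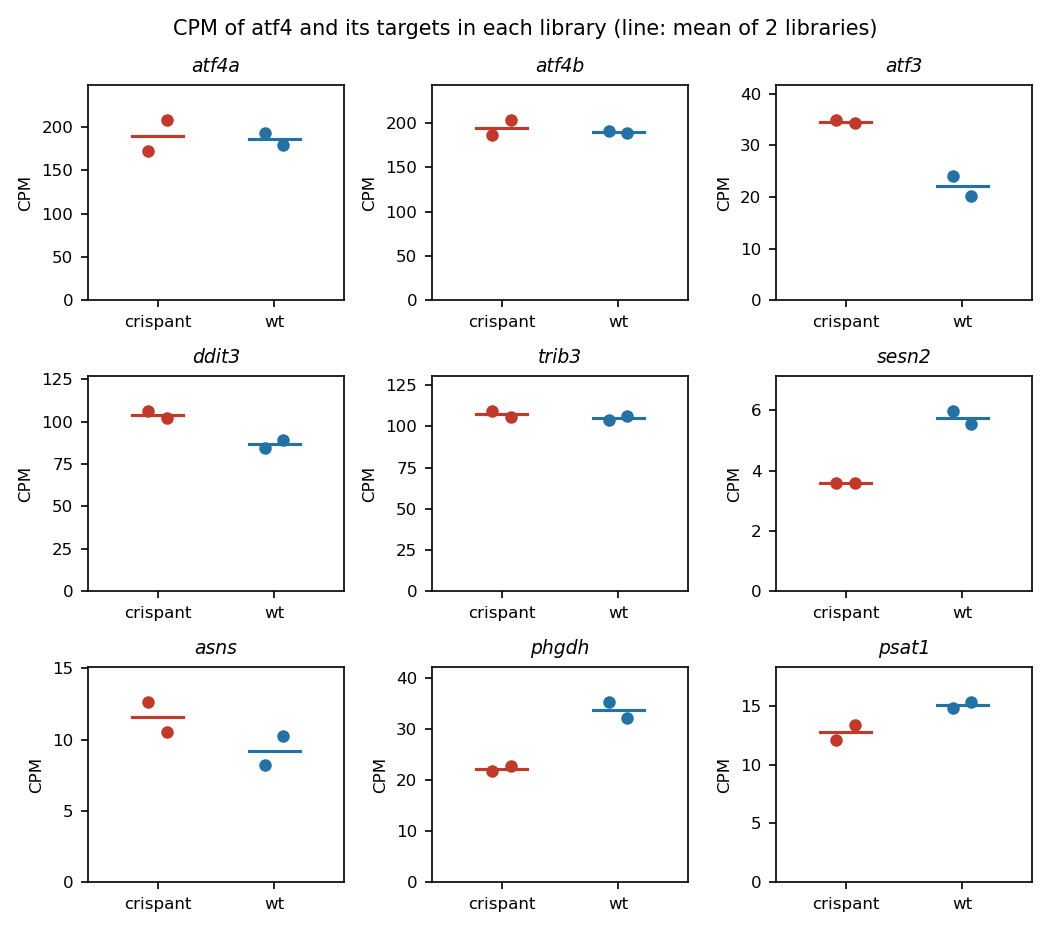
CPM (y axis, from 0) of the 9 genes that had counts, in the 2 crispant and the 2 wt libraries (points), with the mean of each group as a line. *atf3* and *ddit3* lie higher and *phgdh* lower in both crispant libraries, while the groups overlap for *atf4a*, *atf4b* and *trib3*. *asns* also lies higher and *sesn2* and *psat1* lower in both crispant libraries, but these did not pass.

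The members that encode biosynthetic enzymes did not move as a block. *phgdh* (ENSDARG00000001873) encodes phosphoglycerate dehydrogenase, the enzyme that opens the serine pathway. It had 21.8 and 22.7 CPM in crispants, against 35.3 and 32.2 CPM in wt. Both crispant libraries stood well below both wt libraries. The means were 22.3 ± 0.663 CPM in crispants and 33.8 ± 2.17 CPM in wt (SD, n = 2 each), a log2 fold change of -0.60 (SE 0.13, adjusted p = 0.000299), or 66.0% of the wt level with a 95% interval of 55.2% to 78.9%. The fall kept its call under every alternative tried, with adjusted p-values from 0.000143 to 0.0147. *psat1* (ENSDARG00000016733) encodes phosphoserine aminotransferase, which acts next in the same pathway. It had 12.1 and 13.4 CPM in crispants, against 14.8 and 15.3 CPM in wt, lower in both crispant libraries but with a difference that did not pass (log2 fold change -0.24, SE 0.18, adjusted p = 0.412). *psph* (ENSDARG00000040314), the phosphatase that completes serine, had a log2 fold change of 0.03 (adjusted p = 0.925). The difference in change between *phgdh* and the other enzymes of the pathway was not tested.

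*asns* (ENSDARG00000016375), which encodes asparagine synthetase, pointed the other way. It had 12.6 and 10.5 CPM in crispants, against 8.20 and 10.2 CPM in wt. The lower crispant library lay just above the higher wt library, at 128 to 242 reads per library. The log2 fold change of 0.33 did not pass (SE 0.21, 95% interval -0.08 to 0.74, adjusted p = 0.316).

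**Figure D2:**
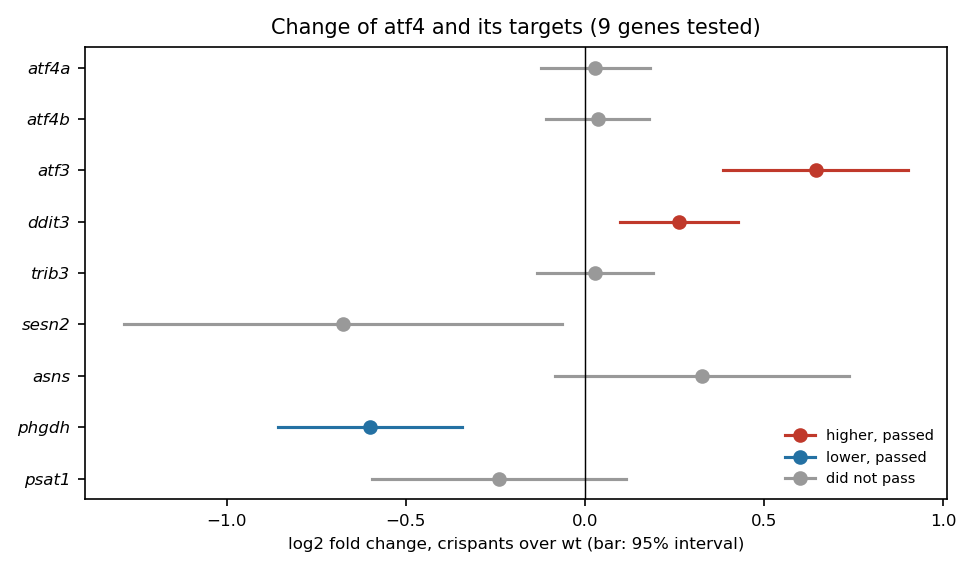
Log2 fold change (x axis, crispants over wt) of the 9 tested genes with 95% intervals that are not adjusted for the number of genes. *atf3* and *ddit3* are higher and *phgdh* lower; *atf4a*, *atf4b* and *trib3* have narrow intervals around 0, and that of *sesn2* is the widest.

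The rest of the pathway was read from 7 lists that follow its order, from kinases to target enzymes, and held 115 genes beyond the members. Of the 114 tested, 9 rose and 15 fell, together 21.1%, beside 16.4% of all genes tested. Their median log2 fold change was -0.03. The lists differed in which direction their calls took. Calls also depend on the standard error, which is larger for thinly counted genes. Thus *eif2s2* passed at a log2 fold change of -0.23 (SE 0.07), whereas *psat1* at -0.24 (SE 0.18) did not. The lists were not matched in depth to all genes tested, which limits how far their shares called can be compared with 16.4%.

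None of the 5 eIF2α kinase genes passed in edgeR, DESeq2 or limma-voom, and 1 had an unadjusted p under 0.05 in edgeR. This was *pkz* (ENSDARG00000052396), a fish kinase related to the sensor of double-stranded RNA, with 1.46 and 2.67 CPM in crispants, against 3.59 and 3.73 CPM in wt (log2 fold change -0.84, adjusted p = 0.161). *eif2ak3*, which encodes the kinase PERK of the endoplasmic reticulum, had 0.21 (adjusted p = 0.228), and *eif2ak4*, which encodes the amino acid sensor GCN2, had 0.02 (adjusted p = 0.938). These kinases are switched on by their ligands, which mRNA levels do not show.

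Among the genes of eIF2, of its exchange factor eIF2B and of the regulators that oppose eIF2α phosphorylation, 4 of 14 fell and none rose, or 28.6% called beside 16.4% of all genes tested, with a median of -0.17. They were subunits of eIF2, namely *eif2s3b* (log2 fold change -0.46, adjusted p = 4.73e-08), *eif2s1* (ENSDARG00000052178, -0.33, adjusted p = 0.000282) and *eif2s2* (-0.23, adjusted p = 0.00924), and the catalytic subunit of eIF2B, *eif2b5* (-0.31, adjusted p = 0.00824). With library totals alone, and without wt replicate 1, 2 of the 14 passed. *eif2s3b* had 549 and 589 CPM in crispants, against 783 and 781 CPM in wt. The calls of *eif2s2* and *eif2b5* were lost when library totals alone set the scale (adjusted p = 0.0687 and 0.0555) and without wt replicate 1 (0.0826 and 0.0988), that of *eif2s2* also without wt replicate 2 (0.148) and that of *eif2b5* without crispant replicate 2 (0.0625). *ppp1r15a*, which encodes the stress-induced phosphatase subunit GADD34 and is itself an ATF4 target in mammals, had 61.5 and 64.1 CPM in crispants, against 76.0 and 69.7 CPM in wt, and did not pass (-0.21, adjusted p = 0.110).

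Of 16 genes for bZIP partners of Atf4 and other regulators, 4 rose and none fell, or 25% called beside 16.4%, with a median of 0.29. *nfe2l2* (ENSDARG00000042824), which encodes the regulator of the oxidative stress response, had 95.7 and 91.6 CPM in crispants, against 63.4 and 55.3 CPM in wt (log2 fold change 0.66, adjusted p = 2.80e-08). *cebpb*, which encodes a C/EBP factor that can dimerise with ATF4, rose by 0.44 (adjusted p = 3.73e-05), *atf5b*, a relative of *atf4* that is also under translational control in mammals, by 0.36 (adjusted p = 0.000677), and *cebpa* by 0.31 (adjusted p = 0.0333). Without wt replicate 1, 2 of the 16 passed. The call of *atf5b* was lost without wt replicate 1 (adjusted p = 0.0607), and that of *cebpa* with DESeq2 (adjusted p = 0.106) and without any single library (0.0645 to 0.169). The second copy, *atf5a*, had -0.24 (adjusted p = 0.0820).

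Of the 23 tested genes for other stress effectors, 2 rose and 2 fell (5 and 2 with library totals alone), or 17.4%, close to the 16.4% of all genes tested. *hmox1* (ENSDARG00000027529), which encodes haem oxygenase, rose most, with 269 and 244 reads in crispants, against 81 and 100 reads in wt, a mean of 14.6 ± 0.822 CPM in crispants and 5.34 ± 0.213 CPM in wt (SD, n = 2 each, log2 fold change 1.45, SE 0.21, adjusted p = 2.16e-07). *sqstm1*, which encodes the autophagy receptor p62, rose by 0.52 (adjusted p = 3.44e-06). Both are known targets of NFE2L2 as well as of ATF4. *vldlr*, a lipoprotein receptor gene, changed by -0.42 (adjusted p = 0.000277), and *eif4ebp3* (ENSDARG00000041607), which encodes an inhibitor of the cap-binding protein eIF4E, by -0.30 (adjusted p = 0.00109), a call lost without wt replicate 2 (adjusted p = 0.0505). *ddit4*, which encodes an inhibitor of mTORC1 that is induced by ATF4, had 112 and 121 CPM in crispants, against 117 and 128 CPM in wt, and did not pass (-0.08, adjusted p = 0.597).

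Among targets that serve amino acid supply, 2 of 16 amino acid transporter genes fell and none rose (1 rose with library totals alone), with a median of -0.08. This was 12.5% called, not above the 16.4% of all genes tested. *slc1a4* (ENSDARG00000000551), which encodes a carrier of serine and alanine, had 14.2 and 13.2 CPM in crispants, against 27.9 and 23.3 CPM in wt (log2 fold change -0.89, SE 0.15, adjusted p = 6.34e-06). *slc38a2*, the amino acid-regulated carrier SNAT2, had 49.6 and 42.3 CPM in crispants, against 65.8 and 63.2 CPM in wt (-0.49, adjusted p = 0.000173). *slc7a11*, the cystine carrier, was thinly counted and had -0.36 (adjusted p = 0.631).

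Of 26 genes for the synthesis of amino acids and one-carbon units, 3 rose and 2 fell, or 19.2%, also close to the 16.4% of all genes tested. *pck2*, which encodes mitochondrial phosphoenolpyruvate carboxykinase, had 99.4 and 105 CPM in crispants, against 54.6 and 61.8 CPM in wt (log2 fold change 0.81, SE 0.09, adjusted p = 3.47e-11). *shmt2*, which encodes the mitochondrial enzyme that splits serine, rose by 0.42 (adjusted p = 0.00929) and *got1*, an aspartate aminotransferase gene, by 0.23 (adjusted p = 0.0129). The copies of *glul*, which encodes glutamine synthetase, changed by -0.50 (ENSDARG00000099776, adjusted p = 4.18e-09) and -0.22 (ENSDARG00000100003, adjusted p = 0.0115). The calls of *shmt2* (without crispant replicate 1, adjusted p = 0.183, or wt replicate 2, 0.0870), *got1* (without crispant replicate 2, 0.0591, or either wt library, 0.240 and 0.0585) and the second *glul* copy (library totals alone, 0.0755, or without either wt library, 0.174 and 0.102) did not hold throughout. *mthfd2*, the mitochondrial folate enzyme that ATF4 induces in mammalian cells, had 6.14 and 8.45 CPM in crispants, against 7.62 and 8.73 CPM in wt, with overlap (-0.17, adjusted p = 0.705).

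Of 14 genes for cytosolic tRNA synthetases and the tRNA exporter *xpot*, which are targets of ATF4 in mammals, 5 fell and none rose, or 35.7% called beside 16.4% of all genes tested, with a median of -0.15. *gars1* had 193 and 196 CPM in crispants, against 269 and 262 CPM in wt (log2 fold change -0.45, adjusted p = 8.61e-07). *aars1* changed by -0.43 (adjusted p = 6.76e-07), *sars1* by -0.42 (adjusted p = 9.52e-05) and *eprs1* by -0.30 (adjusted p = 0.000197). The fifth was *mars1* (-0.26, adjusted p = 0.0224), whose call was lost with DESeq2 (0.0733), with library totals alone, without crispant replicate 1 (0.107) and without wt replicate 1 (0.545).

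**Figure D3:**
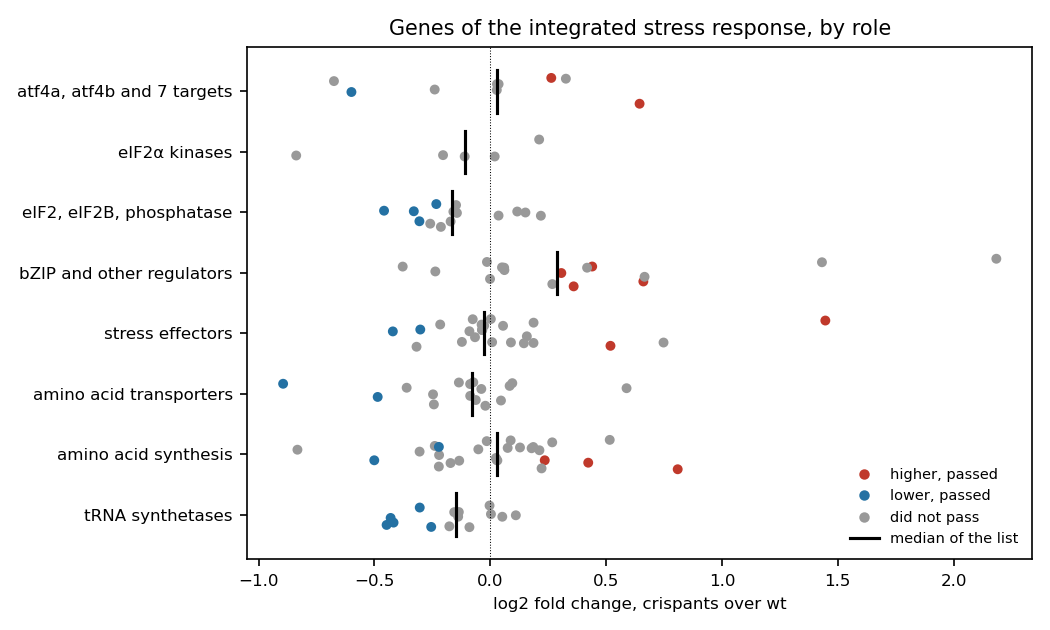
Log2 fold change (x axis, crispants over wt) of each tested gene (points) in the member list and 7 pathway lists, with the list median as a black bar and genes that passed in red (higher) or blue (lower). With TMM scaling all calls among transporters, tRNA synthetases and eIF2 genes are lower and all among bZIP regulators are higher, while stress effectors and amino acid synthesis hold both.

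Stress responses that lie beside the *atf4* arm were read in the same way. The IRE1 and ATF6 arms of the unfolded protein response raise chaperones of the endoplasmic reticulum. They had 11 of 26 genes higher and none lower, or 42.3% called beside 16.4% of all genes tested. The 26 hold *dnajb9* at 2 IDs with nearly equal reads (ENSDARG00000016886 and ENSDARG00000052072). Neither passed (log2 fold change -0.39 and -0.45, adjusted p = 0.665 and 0.608). The median of the list was 0.19. *hspa5*, which encodes the chaperone BiP, had 288 and 306 CPM in crispants, against 226 and 207 CPM in wt (log2 fold change 0.46, adjusted p = 5.65e-07), and *hyou1*, another chaperone gene, rose by 0.69 (adjusted p = 6.60e-07). Immediate early genes, many of which are induced with *atf3* by acute stimuli, had 11 of 30 higher and 2 lower. Together this was 43.3% called, again beside 16.4% of all genes tested, with a median of 0.08. *socs3* (ENSDARG00000025428) rose by 0.65 (adjusted p = 2.07e-09), while *npas4* (ENSDARG00000055752), an activity-dependent gene of neurons, changed by -0.65 (adjusted p = 1.58e-09). The other listed copies, *socs3* (ENSDARG00000026611) and *npas4* (ENSDARG00000087753), did not pass (log2 fold change 0.05 and -0.29, adjusted p = 0.834 and 0.611). Without wt replicate 2 the first list had 7 genes higher and the second also had 7. The part of either list in the rise of *atf3* and *ddit3* was not tested.

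Markers of tissues moved with the groups too. Their counts stand beside 8.98% of all genes tested that were higher and 7.44% that were lower. Skin markers (8 of 10 higher, 2 lower) summed to 10240 and 10950 CPM in crispants and to 9193 and 8928 CPM in wt. Enterocyte markers (15 of 20 higher, 2 lower) summed to 5986 and 6057 CPM in crispants and 3835 and 3842 CPM in wt. A large part of these enterocyte sums came from *apobb.1* alone, with 1866 and 1709 CPM in crispants and 786 and 808 CPM in wt. Hepatocyte markers (8 of 14 higher, none lower) summed to 3395 and 3570 CPM in crispants and 2830 and 2837 CPM in wt. In the direction of *phgdh*, neuron markers (9 of 13 lower, none higher) summed to 2226 and 2248 CPM in crispants and 2794 and 2806 CPM in wt, photoreceptor markers (10 of 15 lower, none higher) to 1165 and 1236 CPM in crispants and 1900 and 1799 CPM in wt, and markers of the exocrine pancreas (8 of 13 lower, 2 higher) to 5164 and 5623 CPM in crispants and 8258 and 8140 CPM in wt. Lens markers (6 of 11 lower, none higher) summed to 3649 and 4025 CPM in crispants and 4974 and 4679 CPM in wt. Skeletal muscle markers (4 of 13 higher, none lower) summed to 66130 and 68300 CPM in crispants and 63500 CPM in both wt libraries, and goblet cell markers (1 of 5 higher, none lower) to 19.8 and 19.2 CPM in crispants and 9.80 and 11.5 CPM in wt. No matched marker in these lists was at 0 in every library. Planned markers that matched no gene symbol are missing from the counts and sums. These were *cela1.1*, *ctrb1*, *cpa4*, *cpa5*, *cel.1*, *cel.2* and *pnliprp2* for the exocrine pancreas, and *opn1sw1*, *pde6a* and *rcvrn3* for photoreceptors. Also missing were *lim2.4* for the lens, *mylpfa* for skeletal muscle and *muc2.1* for goblet cells. The part of tissue composition in the changes of the members was not tested.

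**Figure D4:**
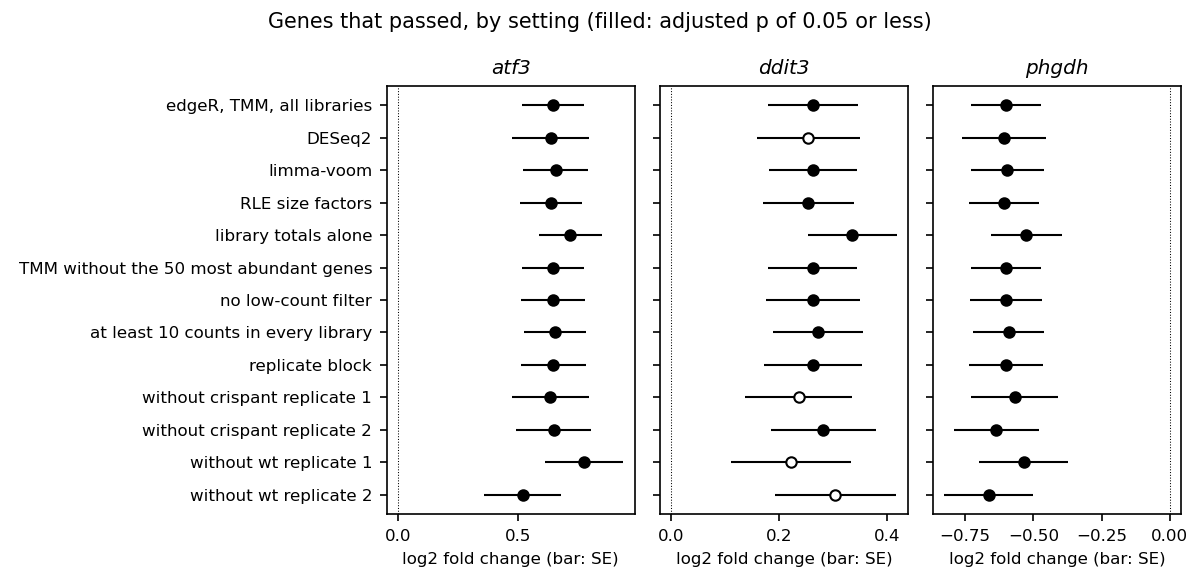
Log2 fold change with its standard error (x axis, crispants over wt) of *atf3*, *ddit3* and *phgdh* under each way of processing the counts, filled where the adjusted p was 0.05 or less. *atf3* and *phgdh* stay filled throughout, and *ddit3* is open with DESeq2 and without crispant replicate 1, wt replicate 1 or wt replicate 2.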

How the data were processed

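RNA of whole larvae was sequenced in 4 libraries. The deposited values are raw counts of reads per gene, which the authors made by trimming with Trimmomatic 0.39, alignment to GRCz11 with HISAT2 and counting with featureCounts, and tested with DESeq2, per the labels and the supplementary methods. Not given in the sources used here are the gene annotation, whether strand was used and how multi-mapping reads were handled, so antisense partners and close gene copies are uncertain. Exactly repeated lines (147) were dropped. Symbols came from a gene name table, which matched 29201 of 32520 IDs. List entries were matched with or without letters that separate gene copies. An added letter a to d was allowed, for tissue markers only where the entry ends in a digit. A final a or b could be dropped, except in the shortest entries. Lettered and unlettered genes can thus stand in the same list, such as *fth1* and *fth1a*. The lists for targets of nfe2l2 and for glia were added after values had been seen.

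Genes were filtered with filterByExpr, scaled with TMM and tested with edgeR 4.0.16 (glmQLFit, glmQLFTest, R 4.3.3) with genotype as the only term and Benjamini-Hochberg adjustment over 20479 genes. The standard error is the size of the log2 fold change divided by the square root of F. The edgeR test moderates each gene's spread toward that of all genes tested. Its p-values, standard errors and intervals thus rest largely on this shared spread, whereas the SDs of CPM are each gene's own. DESeq2 1.42.0 (on the same filtered genes), limma 3.58.1 (voom), other scalings, other filters, an adjusted p of 0.01, the replicate number as a block and leaving out each library were the alternatives. The test was also run on simulated counts, whose outcome is not reported here and is not used for any result. Duplicate libraries differed beyond sampling noise (chi-square 4.69 times its degrees of freedom in crispants and 4.20 times in wt). Depth was 15916216 to 18619802 counts per library. The members and lists were chosen with earlier results of these data known. Named genes are all members, *grwd1*, up to 4 called genes of each pathway list in each direction (the nearest where none was called) and the genes with the smallest p of the neighbouring stress lists. Genes named beyond this rule were picked for their known role after their values were seen. Marker lists are given by counts and sums only, apart from *apobb.1*, which is named for its share of the enterocyte sums. Promoter motifs were planned but not analysed here.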

Additional observations from a re-analysis of the deposited data

How the results depend on the processing

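The count of genes called was 2131 at an adjusted p of 0.01 (1193 higher, 938 lower), and DESeq2 called 1211 higher genes. Leaving out each library in turn gave 2201 to 2698 genes called, 1266 to 1375 higher and 935 to 1327 lower, with 2201 genes called and 935 lower without wt replicate 1 and 1003 lower without wt replicate 2. With library totals alone 1000 genes were lower, 15 pathway genes were higher in place of 9, and the median of the members was 0.10 in place of 0.03. The number of members that rose was 1 in place of 2 with DESeq2 and at an adjusted p of 0.01, and 1 to 2 without each library, since *ddit3* lost its call; 2 to 3 members passed without each library. The median of the members ranged from -0.03 to 0.09 and the count of higher pathway genes from 7 to 8 when a library was left out. *atf4a* changed sign without crispant replicate 2 and without wt replicate 2, and *atf4b* without crispant replicate 2, none of them passing. Over all genes, deviations of same-numbered libraries from their group mean were close to uncorrelated (correlation -0.007). This does not settle whether the replicate numbers pair libraries for some genes. The replicate block gave 3260 genes called and the same count of 3 members. The share of *atf4a* is the same from counts and CPM by construction. Depth limits *sesn2*, *asns* and *psat1* most, and *chac1* could not be measured.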

Other observations

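Because *nfe2l2*, *hmox1* and *sqstm1* were seen to rise, targets of NFE2L2, the regulator of glutathione and thioredoxin metabolism that shares targets with ATF4, were read from a list written after those values were known. Of 18 such genes tested, 8 rose and 2 fell, or 55.6% beside 16.4% of all genes tested, with a median log2 fold change of 0.13. *hmox1* and *sqstm1*, which prompted the list, are among the 8, so this share includes genes already known to rise. The entries *txnrd1* and *gstp1* matched no gene symbol and are missing from the list. Of the rest, *gsr*, which encodes glutathione reductase, had 48.3 and 55.5 CPM in crispants, against 34.8 and 33.9 CPM in wt (log2 fold change 0.59, adjusted p = 2.47e-05). *txnrd3*, a thioredoxin reductase gene, rose by 0.53 (adjusted p = 1.13e-07) and *gclc*, the catalytic subunit of glutathione synthesis, by 0.43 (adjusted p = 0.000468). *tkt*, a transketolase gene, changed by -0.72 (adjusted p = 1.33e-11), with 108 and 104 CPM in crispants, against 171 and 177 CPM in wt. *slc7a11*, which both factors regulate in mammals, did not pass.

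*phgdh*, *slc1a4* and *glul*, which fell, are prominent in glia. In a list of radial and Müller glia genes that was also written after these values were seen, 4 of 19 genes were lower and 1 was higher, or 26.3% beside 16.4% of all genes tested. None was higher with RLE size factors, with the replicate block or without either wt library. The median was -0.08 and the sum was 2108 and 2147 CPM in crispants, against 2271 and 2218 CPM in wt. The glutamate transporter gene *slc1a2* (ENSDARG00000052138) changed by -0.63 (adjusted p = 1.75e-06) and its more abundant copy (ENSDARG00000102453), with 532 and 554 CPM in crispants, against 661 and 637 CPM in wt, by -0.26 (adjusted p = 0.00226), whereas *gfap*, a defining marker, had 222 CPM in both crispant libraries, against 204 and 209 CPM in wt (log2 fold change 0.11, adjusted p = 0.350). The part of glial RNA in the fall of *phgdh* was not tested.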
